A study of Homo sapiens with 6 samples.

Results

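Cathepsins are the proteases of the lysosome. The 10 cathepsin genes described here (CTSA, CTSB, CTSC, CTSD, CTSH, CTSK, CTSL, CTSO, CTSS and CTSZ) were taken by symbol from a deposited table of 58219 genes, in which each symbol stood once. They were read in IMR90 cells, normal diploid fibroblasts of human lung, that carry ER-RAS, a fusion of oncogenic RAS (RASG12V in the series' design text) with a part of the oestrogen receptor that becomes active with 4-hydroxytamoxifen (4OHT). The 3 libraries of 30 h came from cells given 100 nM 4OHT for 30 h and labelled uncommitted controls. The 3 libraries of 72 h came from cells given the same dose for 72 h and labelled committed, which in the series' title refers to senescence. Both groups carry ER-RAS and both received 4OHT, and no untreated cells are analysed here, so commitment and time under RAS cannot be told apart. The titles give the times as 1.5 and 3 days. The replicates are named A, B and C, and the labels leave unsaid whether each came from its own culture. All p-values below therefore rest on library-to-library spread that may be technical.

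Most cathepsins are cysteine proteases of the papain family, with a cysteine in the active site, while cathepsin D is an aspartic protease and cathepsin A a serine carboxypeptidase. They are made as inactive precursors, carried to the lysosome mostly by mannose 6-phosphate receptors, and matured there at acidic pH. Some are also secreted, and outside the cell the cysteine cathepsins can cut collagen and elastin and are held in check by cystatins. Enlarged lysosomes with high hydrolase activity are a known trait of senescent fibroblasts.

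Each library held between 13221152 and 15703544 reads in genes. The libraries of letter C lay apart from those of A and B on the second principal component, which held 6.99% of the variance, while the first, with 81.3%, separated 30 h from 72 h. All 13 fibroblast markers examined were present in every library, and their summed level lay between 222271 and 238950 normalised counts (reads divided by the library's size factor) at 30 h, against 106249 to 119624 at 72 h. Of the 13, 7 fell (among them VIM, COL1A1 and COL1A2, with the most reads of those that fell), 1 rose (FAP) and 5 did not pass the test. By the same test, named in the next paragraph, 25.0% of all tested genes passed as lower and 23.6% as higher. Of 15 leukocyte and macrophage markers, 10 stayed under 10 normalised counts in every library and 4 (AIF1, CD3E, FCGR3A and TYROBP) had none. Of 8 epithelial markers 4 stayed under 10, with KRT5, SCGB1A1 and SFTPC at 0, and of 6 endothelial markers 2 stayed under 10, with CDH5 at 0. Other markers of these lists were present. KRT18 had 517.1 to 697.9 normalised counts, KRT8 47.01 to 82.86 and the endothelial marker TEK 384.9 to 914.3. The epithelial marker KRT19 had 43.69 in 30 h replicate B and 34.88 in 72 h replicate B, with at most 4.874 in any other library. It was not tested. KRT18 and TEK passed as lower at 72 h.

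The family did not move as a whole. Of the 10 cathepsins, all of which passed the filter on low values, 3 rose at 72 h (CTSS, CTSO and CTSD), 4 fell (CTSC, CTSH, CTSZ and CTSB) and 3 did not pass the test (CTSA, CTSK and CTSL), by limma with Benjamini-Hochberg adjustment over all tested genes at a threshold of 0.05. Of all 13315 genes tested, 48.6% passed the same threshold, 23.6% as higher and 25.0% as lower. The members' median log2 fold change was -0.04, against 0.01 for all tested genes. In 7 of the 10 the libraries of 72 h did not overlap those of 30 h, as in 59.2% of all tested genes (29.3% with 72 h higher and 29.9% with 72 h lower). The same 7 cathepsins passed by edgeR on the whole reads, where 48.8% of genes did, and in the authors' deposited table, where 32.3% of 17065 genes did. With 10 members, 7 calls against this background are not read as a result about the family, and the largest change among them was the rise of CTSS. In bulk RNA a change in the number of cells that express a gene and a change in its RNA per cell cannot be told apart.

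**Figure D1:**
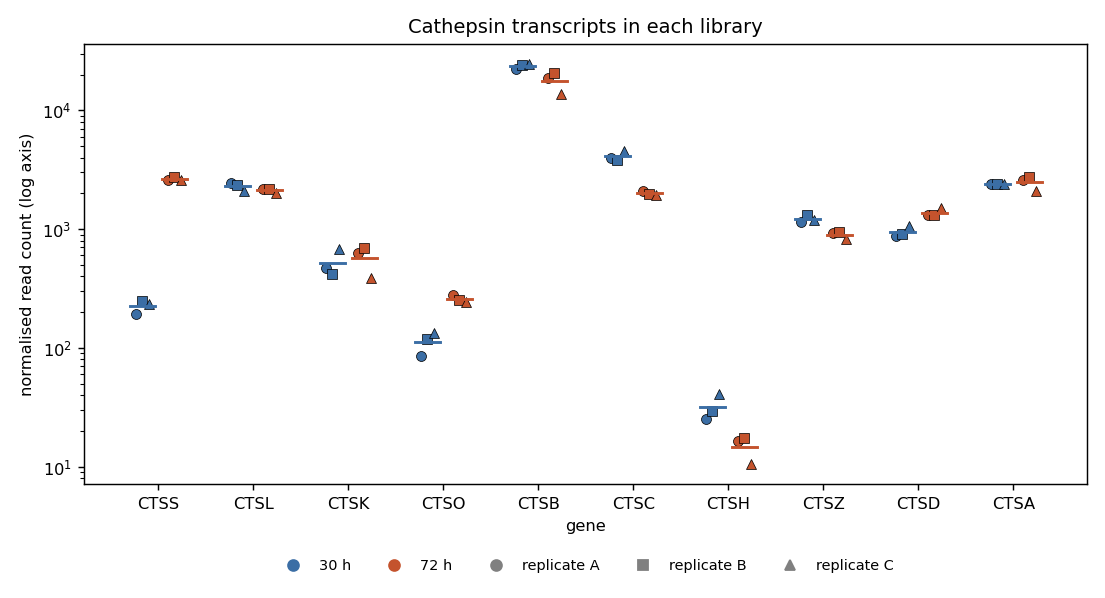
Normalised read count (log axis) of the 10 cathepsins in each library, 3 at 30 h (blue) and 3 at 72 h (orange), with the symbol giving the replicate letter and the bar the group mean. The libraries of 72 h lie far above those of 30 h for CTSS and below those of 30 h for CTSC, and the libraries of letter C lie on opposite sides of the others for CTSK.

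CTSS, CTSL and CTSK are closely related endopeptidases that cut inside protein chains. CTSS encodes cathepsin S, which stays active at neutral pH, degrades elastin and trims the invariant chain of MHC class II in antigen-presenting cells. Its gene (ENSG00000163131.10) lies at chromosome 1, 150730196 to 150765957, on GRCh38. CTSS had 194, 247.9 and 235.2 normalised counts in libraries A, B and C of 30 h and 2572, 2740 and 2591 in those of 72 h. Every library of 72 h was thus far above every library of 30 h, and the 3 libraries of each time lay close together. The group means were 225.7 ± 28.2 and 2634 ± 91.8 (SD, n = 3 each), a rise of 11.7-fold (log2 fold change 3.55 ± 0.0896 SE, limma adjusted p = 1.84e-08). By p-value CTSS ranked 3 among the 13315 tested genes, and by size of rise 59. In the authors' deposited table it had the smallest p-value of all genes (rank 1), with a log2 fold change of 3.55 ± 0.107 (SE) and adjusted p = 1.09e-238.

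Cathepsin S is abundant in leukocytes, whose markers were therefore set beside it. PTPRC, the pan-leukocyte surface protein CD45, had 0 to 2.924 normalised counts at 30 h and 2.044 to 5.245 at 72 h. LYZ, the lysozyme of myeloid cells, had at most 1.049 in any library, and TYROBP and AIF1 had 0. Low counts that were higher at 72 h were seen for FCER1G, an Fc receptor subunit, from 0.9748, 3.048 and 1.055 to 12.26, 9.591 and 8.391, and for ITGAX, the integrin CD11c, from 0, 0 and 2.109 to 8.175, 12.21 and 5.245. Neither passed the filter. CD14, of the same list, had 5.849, 4.064 and 12.65 at 30 h and 3.066, 3.488 and 7.342 at 72 h. It was thus not higher at 72 h, and it did not pass the filter. CSF1R, the receptor of macrophage growth factor, went from 9.748, 18.29 and 21.09 to 51.09, 57.55 and 58.74 and was the only marker of that list that passed the filter and the test. Summed, the 15 markers reached 27.43 to 47.77 at 30 h, against 79.71 to 94.17 at 72 h. The sum was thus higher at 72 h, as CTSS was, and CSF1R gave most of it at 72 h. The part of these markers in the rise of CTSS was not tested.

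CTSK, the collagen-degrading cathepsin K of osteoclasts and fibroblasts, is the next gene on chromosome 1 (150796208 to 150808323). It stands on the same strand as CTSS, with 30250 bases between the ends of the genes. CTSK had 469.9, 416.5 and 678.1 normalised counts at 30 h and 631.5, 691.4 and 384.9 at 72 h, so the groups overlapped. Letter C had the highest of the 30 h values and the lowest of the 72 h values. The means were 521.5 ± 138 and 569.3 ± 162, with a log2 fold change of 0.11 ± 0.292 (SE) and limma adjusted p = 0.783. Without both libraries of letter C, an alternative added after the data were seen, CTSK had a log2 fold change of 0.58 and limma adjusted p = 4.91e-06. That fit drops the libraries that made the spread of CTSK wide. Its p-values, here and for the members below, are thus not comparable with those of all libraries. The call of CTSK therefore rests on whether letter C is kept.

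The genes on either side of this pair, chosen after the data were seen, had smaller changes than CTSS. GOLPH3L, a Golgi protein gene beyond CTSS, had a log2 fold change of -0.52 ± 0.096 (limma adjusted p = 0.00162), and HORMAD1 between them did not pass the filter. ARNT, the partner of hypoxia-inducible factors next to CTSK, had 0.36 ± 0.0675 (limma adjusted p = 0.00187).

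CTSL, cathepsin L, is a widely expressed endopeptidase on chromosome 9 (87725519 to 87731393). It had 2425, 2351 and 2080 normalised counts at 30 h and 2165, 2170 and 2022 at 72 h, with the range of 72 h reaching into that of 30 h. The log2 fold change was -0.11 ± 0.0672 (SE) and limma adjusted p = 0.219. CTSL passed as lower without 30 h replicate C (log2 fold change -0.17, limma adjusted p = 0.0305) and without both libraries of letter C (-0.14, adjusted p = 0.0323). Of its 50-base words 0.641% also occur in other genes, mostly in the pseudogene CTSL3P.

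CTSO, cathepsin O, is a lesser known papain-like cathepsin on chromosome 4 (155924118 to 155953917). It had 84.81, 119.9 and 133.9 normalised counts at 30 h and 280, 252.9 and 243.3 at 72 h. All libraries of 72 h were above all of 30 h, and the spread was wider at 30 h. The rise was 2.32-fold (log2 fold change 1.21 ± 0.162 SE, limma adjusted p = 0.000251), the next after CTSS in size among the 10.

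CTSB, cathepsin B, is both an endopeptidase and a peptidase of carboxy-terminal dipeptides, and its gene lies on chromosome 8 (11842524 to 11869448). It was the cathepsin with the most reads in every library. CTSB had 22277, 23976 and 24520 normalised counts at 30 h and 18866, 20564 and 13685 at 72 h. No library of 72 h reached those of 30 h, and 72 h replicate C was the lowest. The log2 fold change was -0.43 ± 0.147 (SE) with limma adjusted p = 0.0468, so the call was close to the threshold. Leaving out 1 library of 30 h ended it in each case, with limma adjusted p = 0.0781 for A, 0.113 for B and 0.167 for C, as did leaving out 72 h replicate A (0.0618). Without 72 h replicate C the fall was smaller, at -0.26, with limma adjusted p = 0.0106.

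CTSC, CTSH and CTSZ encode papain-family exopeptidases, which remove residues from the ends of chains. CTSC, cathepsin C or dipeptidyl peptidase 1, removes dipeptides from the amino end and activates the serine proteases of immune cell granules. It lies on chromosome 11 (88293592 to 88337787). CTSC had 3982, 3809 and 4544 normalised counts at 30 h and 2101, 1969 and 1933 at 72 h. The groups were well apart and the libraries of 72 h nearly equal. The means of 4112 ± 384 and 2001 ± 88.4 (SD, n = 3 each) gave a fall of 2.05-fold (log2 fold change -1.04 ± 0.0712 SE, limma adjusted p = 4.01e-06).

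CTSZ, the carboxypeptidase cathepsin Z (also called cathepsin X), lies on chromosome 20 (58995185 to 59007247). It had 1149, 1314 and 1196 normalised counts at 30 h and 933, 942.6 and 817.1 at 72 h, without overlap. Its fall was 1.36-fold (log2 fold change -0.44 ± 0.0758 SE, limma adjusted p = 0.00104).

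CTSH, cathepsin H, is an aminopeptidase known in lung for processing surfactant protein, on chromosome 15 (78921058 to 78949574). It was the cathepsin with the fewest reads, 26, 29 and 39 at 30 h and 16, 20 and 10 at 72 h, so that counting error alone is wide. The normalised counts were 25.35, 29.46 and 41.13, then 16.35, 17.44 and 10.49, again without overlap. Letter C held the highest value of 30 h and the lowest of 72 h. The log2 fold change was -1.07 ± 0.283 (SE) with limma adjusted p = 0.0111. Without both libraries of letter C it was -0.66, with limma adjusted p = 0.0695, and the call was lost.

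CTSD and CTSA are the members outside the papain family. CTSD, the aspartic protease cathepsin D and a main endopeptidase of lysosomes, lies on chromosome 11 (1752752 to 1764573). CTSD had 876.4, 901.1 and 1054 normalised counts at 30 h and 1307, 1314 and 1496 at 72 h. Letter C was the highest at both times, and the groups did not overlap. The rise was 1.46-fold (log2 fold change 0.54 ± 0.0835 SE, limma adjusted p = 0.000558). Of the 50-base words in CTSD transcripts 45% also occur in other genes, mostly in AC068580.4, annotated on the same strand over 1304 exonic bases of CTSD and with a mean of 1.61 normalised counts. The sources used here do not say how such shared reads were counted, so the level of CTSD is less certain than those of the others.

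CTSA encodes cathepsin A, the protective protein that holds the sialidase NEU1 and the beta-galactosidase GLB1 in a complex, on chromosome 20 (45890144 to 45898820). CTSA had 2401, 2416 and 2395 normalised counts at 30 h and 2570, 2722 and 2107 at 72 h. The libraries of 30 h were nearly equal, and those of 72 h lay on both sides of them. The log2 fold change was 0.03 ± 0.0866 (SE) with limma adjusted p = 0.812. Without both libraries of letter C it was 0.14, with limma adjusted p = 0.0385. Exons of CTSA share 1038 bases with NEURL2 and 200 with PLTP, which are both transcribed the other way, and whether reads were counted by strand is unknown here.

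**Figure D2:**
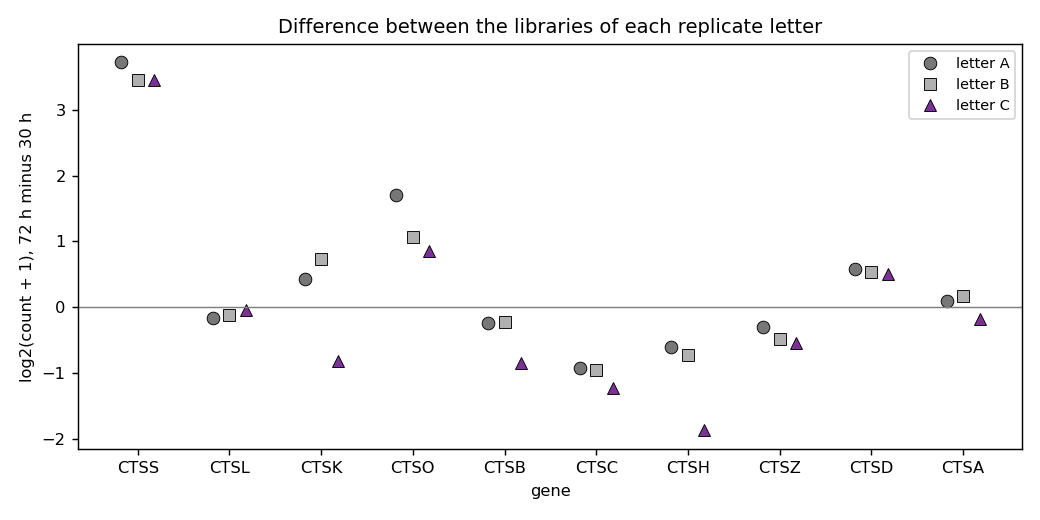
Difference in log2(normalised count + 1) between the 72 h and the 30 h library of each replicate letter, for the 10 cathepsins. CTSS is between 3.46 and 3.72 in all letters, while letter C lies below zero for CTSK (-0.82) where A (0.43) and B (0.73) lie above it. The letters are not shown to pair the libraries, so these differences are a description only.

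Letter C thus departed from A and B in several members. At 72 h the value of letter C was 0.582 of the mean of A and B for CTSK, 0.621 for CTSH and 0.694 for CTSB, and 0.976 for CTSS. At 30 h it was 1.53 for CTSK, 1.5 for CTSH and 1.06 for both CTSB and CTSS. The letters were not treated as pairs, because the labels leave unsaid whether a letter marks a shared culture. Deviations from the group means correlated across genes at r = 0.00696 for A, 0.172 for B and 0.185 for C. Between libraries of different letters and times r lay between -0.212 and 0.0956. Without letter C, 5 cathepsins passed as higher (CTSA and CTSK in addition) and 4 as lower (CTSL in place of CTSH). In that fit 3254 of all 12772 tested genes passed as higher and 3495 as lower. Its p-values are not comparable with those of the main fit. CTSS had limma adjusted p = 1.22e-12 without letter C and 1.84e-08 with it.

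Levels of different genes were compared per kilobase of annotated exon. At 30 h the order was CTSB, CTSL, CTSZ, CTSA, CTSC, CTSD, CTSK, CTSS, CTSO and CTSH. CTSB stood at 3176 ± 157 normalised counts per kilobase (SD, n = 3), CTSL at 965.9 ± 76.9, CTSS at 53.38 ± 6.66 and CTSH at 5.427 ± 1.39. The ranges of CTSC and CTSD, and those of CTSD and CTSK, overlapped at 30 h, and other neighbours in the order did not. At 72 h CTSS stood at 623 ± 21.7 per kilobase, moving from rank 8 to rank 3, behind CTSL at 895.7 ± 35.5 and CTSB at 2384 ± 482. CTSC went from rank 5 to rank 8, at 175.2 ± 7.74. At 72 h neighbours from CTSZ through CTSD and CTSA to CTSK overlapped in their ranges. CTSS per length was 0.155 to 0.266 of CTSK at 30 h and 1.77 to 3 times CTSK at 72 h.

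**Figure D3:**
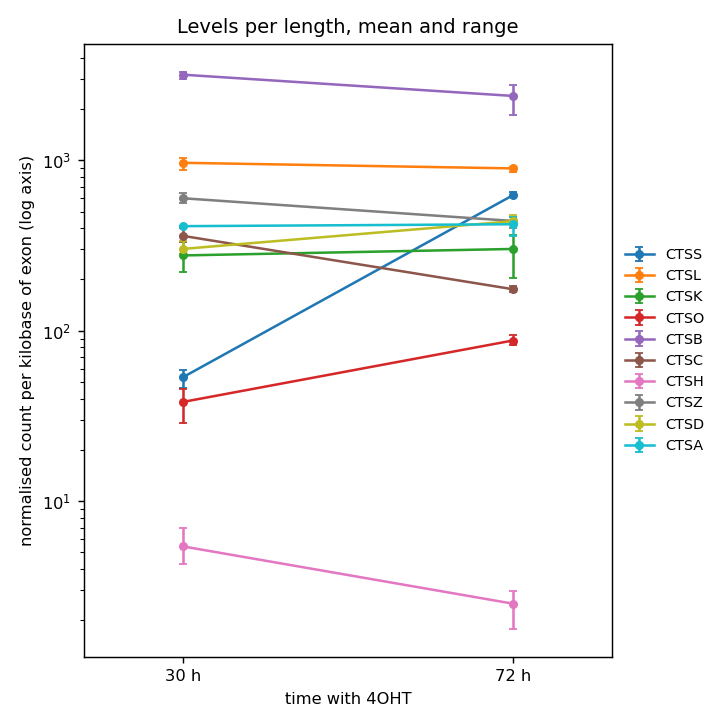
Mean normalised count per kilobase of exon (log axis) of the 10 cathepsins at 30 h and 72 h, with bars from the lowest to the highest of 3 libraries. The line of CTSS crosses those of 5 other cathepsins and ends between CTSL and CTSZ, and CTSB stays at the top at both times.

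The 10 genes together held 0.247% to 0.264% of all reads at 30 h and 0.182% to 0.244% at 72 h, the lowest in 72 h replicate C. Of those reads CTSB gave 66.5% ± 0.85 (SD, n = 3) at 30 h and 58.6% ± 3.95 at 72 h. CTSS went from 0.636% ± 0.0625 to 8.86% ± 1.16 of them and CTSC from 11.6% ± 0.819 to 6.74% ± 0.872. These are shares of reads and not per length.

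By a rule that compared all tested genes with CTSS over the 6 libraries, the closest patterns were those of GCH1, HEPHL1 and CSF2. The measure was the root mean square difference of log2(normalised count + 1) after each gene's mean was removed. It was 0.176 for GCH1, 0.194 for HEPHL1 and 0.205 for CSF2, with a median of 1.78 and a first percentile of 0.693 over all tested genes. A gene without any change differs from CTSS by about that median, because of the size of the rise of CTSS. The measure thus mainly picks genes with a rise of like size. The log2 fold changes were 3.53 for GCH1, 3.77 for HEPHL1 and 3.77 for CSF2, beside 3.55 for CTSS. GCH1, the first enzyme of tetrahydrobiopterin synthesis, had 41.92, 37.59 and 37.96 normalised counts at 30 h and 434.3, 446.4 and 507.7 at 72 h. CSF2, the cytokine GM-CSF, had 148.2, 243.8 and 168.7, then 2588, 2836 and 2141. HEPHL1 had no read at 30 h and 11.24 to 15.69 normalised counts at 72 h, so it passed the filter through 72 h alone and its likeness to CTSS depends on the 1 added before the logarithm.

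Of 5 further cathepsin genes, CTSE and CTSG had no read in any library. CTSV, the close relative of CTSL, had 3.066 to 8.437 normalised counts and CTSW of lymphocytes at most 4.196, and neither was tested. CTSF, a papain-like cathepsin, had 101.4, 85.34 and 113.9 normalised counts at 30 h and 139, 132.5 and 124.8 at 72 h, without overlap. Its log2 fold change of 0.40 ± 0.137 (SE) passed at limma adjusted p = 0.0335. In the authors' deposited table CTSF did not pass, where adjusted p was 0.106. By limma, CTSF also failed when 1 library was dropped, with adjusted p = 0.0728 for A and 0.127 for B of 30 h, and 0.107 for A and 0.0784 for B of 72 h.

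Cystatins are the protein inhibitors of papain-like cathepsins. Of 14 genes of this group, 4 passed the filter, 3 of them rose (CST1, CST3 and CST4) and 0 fell. Of all tested genes 23.6% passed as higher and 25.0% as lower. With 4 genes tested, the count is not read as a result about cystatins. CST4 passed the filter through 72 h alone, and the count of rises was 2 without any 1 library of 72 h or with a filter of 50, under which CST4 was not tested. CST3, the widely secreted cystatin C, had 1606, 1616 and 1587 normalised counts at 30 h and 2175, 2434 and 1926 at 72 h. All libraries of 72 h were higher, by 1.35-fold in the fit (log2 fold change 0.44 ± 0.0783 SE, limma adjusted p = 0.00137). CST1, a secreted cystatin first known from saliva, went from 26.32, 22.35 and 25.31 to 98.1, 160.4 and 74.47 (4.16-fold, limma adjusted p = 0.000176). CST4, another salivary cystatin, went from 9.748, 8.127 and 2.109 to 37.81, 68.88 and 26.22 (log2 fold change 2.64 ± 0.53 SE, limma adjusted p = 0.0039). With so few reads at 30 h the size of this change depends on the pseudocount, the log2 fold change being 2.05 with a pseudocount of 5 and 2.76 with 0.5, and it was 2.08 without 30 h replicate C. Of the 50-base words of CST1 23.6% also occur in other genes, and of those of CST4 30.2%, nearly all in each other or CST2, so the split of reads between them is uncertain. CSTB, the intracellular cystatin B, had 1359, 1427 and 1280 at 30 h and 1422, 1489 and 1275 at 72 h (log2 fold change 0.04 ± 0.0707 SE, limma adjusted p = 0.67). CSTA, its relative in epithelia and leukocytes, had no read at 30 h and at most 1.049 normalised counts at 72 h.

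**Figure D4:**
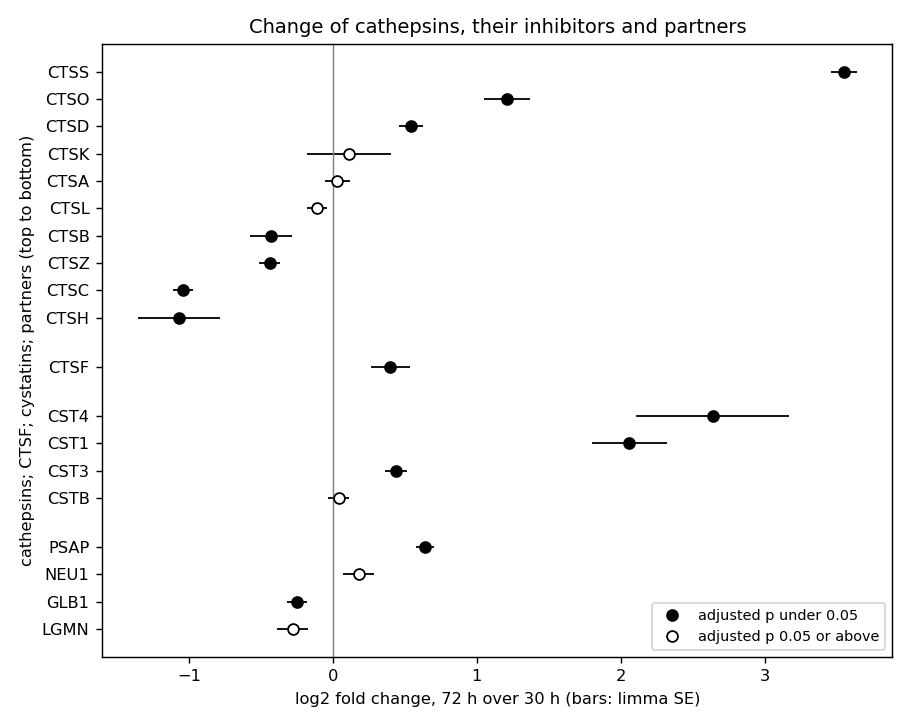
Log2 fold change of 72 h over 30 h, with limma's SE as bars, for the 10 cathepsins, CTSF, the 4 cystatins that passed the filter and 4 partner genes; filled points passed at an adjusted p under 0.05. CTSS (3.55) lies beyond every other cathepsin and cystatin shown, and cathepsins lie on both sides of zero.

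Genes whose products work directly with a cathepsin were divided. NEU1, of the CTSA complex, had 1005, 915.4 and 1058 normalised counts at 30 h and 1200, 1253 and 951.4 at 72 h. It did not pass (log2 fold change 0.18 ± 0.106 SE, limma adjusted p = 0.183) but passed without 72 h replicate C (0.31, adjusted p = 0.00687). GLB1, the lysosomal beta-galactosidase of the senescence stain, fell from 950.4, 984.4 and 995.5 to 782.8, 892 and 784.6 (log2 fold change -0.25 ± 0.0674 SE, limma adjusted p = 0.0109). The call for GLB1 was lost without 72 h replicate A (limma adjusted p = 0.0512).

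PSAP encodes prosaposin, a precursor that cathepsin D cuts into the activators of sphingolipid breakdown. It rose from 7286, 7185 and 7822 normalised counts to 10898, 11693 and 12190 (1.56-fold, limma adjusted p = 2.97e-05), and the groups did not overlap. LGMN, legumain, a protease that processes cathepsins to their mature forms, had 242.7, 266.2 and 255.2, then 191.1, 202.3 and 238.1. The groups did not overlap, but LGMN missed the threshold (log2 fold change -0.28 ± 0.105 SE, limma adjusted p = 0.0508) and passed without 72 h replicate C (-0.37, adjusted p = 0.0134).

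CD74, the invariant chain that cathepsin S trims, had 32.17 normalised counts in 30 h replicate A and 2.044 to 6.327 in the other libraries, and did not pass the filter. HLA-DRA, a chain of MHC class II itself, had 23.4 in the same library and at most 1.744 elsewhere. The high level of CTSS at 72 h was thus measured with these class II genes near 0. IFI30, a lysosomal thiol reductase of the same pathway, had at most 0.9748, although 39.5% of its 50-base words also occur elsewhere, mostly in AC007192.1 on the same strand.

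The other lysosomal genes are given by list, to be read against the 23.6% of all tested genes that passed as higher and the 25.0% that passed as lower. Among 37 other lysosomal hydrolases, 10 rose and 12 fell, leaving 15 that missed the threshold (median log2 fold change 0.01). Genes named by the rule were GGH, which shortens folate polyglutamates and fell 2.83-fold, and PLA2G15, a lysosomal phospholipase that fell 1.91-fold. The log2 fold changes of these hydrolases ran from -1.50 to 1.71, and the largest rise was that of a gene the rule did not name. Of 17 lysosomal membrane proteins tested, 4 rose and 7 fell (median -0.04), and the largest changes were rises of TPCN1, a calcium and sodium channel (2.82-fold), ABCA2, a lipid transporter (2.14-fold), and HGSNAT, an acetyltransferase of heparan sulphate breakdown (1.99-fold). Of 16 subunits of the proton pump that acidifies lysosomes, 8 rose and 3 fell (median 0.17), among them ATP6V0A2 (1.55-fold higher), ATP6V1B2 (1.51-fold higher) and ATP6V1G1 (1.43-fold higher).

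Of 16 genes that sort enzymes to lysosomes, 2 rose and 4 fell (median 0.04). SORT1, sortilin, a sorting receptor that also carries cathepsins, fell from 1496, 1527 and 1574 normalised counts to 439.4, 527.5 and 420.6 (3.32-fold, limma adjusted p = 5.08e-07). GNPTAB, of the enzyme that makes the mannose 6-phosphate tag, fell 1.34-fold and AP1M1, of the clathrin adaptor AP-1, 1.2-fold. AP1M1 no longer passed when 1 library was dropped, with limma adjusted p = 0.0629 for A and 0.0635 for B of 30 h, and 0.0749 for A of 72 h.

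Transcription factors of the MiT/TFE family bind the sequence CACGTG and its extended form TCACGTGA in promoters of lysosomal genes. Of 10 of these factors and their regulators tested, 3 rose and 2 fell (median log2 fold change 0.01, range -1.78 to 2.27). The largest rise was that of a gene the naming rule did not select. The count of rises was 2 with a filter of 50, and also without 72 h replicate A, B or C. It thus leans on a gene whose place in the fit or whose call needed all libraries of 72 h. MITF, a member of the family, fell from 388, 464.3 and 394.4 normalised counts to 127.7, 144.7 and 92.3 (3.44-fold, limma adjusted p = 3.23e-05). FNIP1 and FLCN, partners that control the factors' entry into the nucleus, rose 1.56-fold and 1.47-fold.

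RefSeq promoters (GRCh38.p14, 250 bases before to 50 after the start in RefSeq) were matched for 6 cathepsins: CTSA, CTSC, CTSD, CTSH, CTSL and CTSZ. That start is not the end of the gene coordinates given above. The windows of CTSA, CTSD, CTSH and CTSL lie wholly inside those coordinates. CTSB, CTSK, CTSO and CTSS were not matched. Among the 6, CACGTG was found in CTSA (2 matches) and CTSD (1 match), against 7.43% of all 27305 promoters searched. TCACGTGA, which contains CACGTG, was found in CTSA, against 1.04% of all promoters. TGANTCA, bound by AP-1, and TTCNNNGAA, bound by STAT factors, were found in none of the 6, against 7.76% and 7.88% of all promoters. The kappaB motif of NF-kB was found in CTSZ, against 10.8%. Both strands were searched, and a match is a description of the letters only. The promoters of CTSA and CTSD are shown because they hold the matches to CACGTG while CTSD rose and CTSA did not pass the test, and that of CTSC as an example of a cathepsin that fell and has no match. They lie at chr20:45891085-45891384 (plus strand), chr11:1763878-1764177 (minus strand) and chr11:88337687-88337986 (minus strand). They are written 5′ to 3′, with matches to CACGTG or TCACGTGA in capitals.
CTSA: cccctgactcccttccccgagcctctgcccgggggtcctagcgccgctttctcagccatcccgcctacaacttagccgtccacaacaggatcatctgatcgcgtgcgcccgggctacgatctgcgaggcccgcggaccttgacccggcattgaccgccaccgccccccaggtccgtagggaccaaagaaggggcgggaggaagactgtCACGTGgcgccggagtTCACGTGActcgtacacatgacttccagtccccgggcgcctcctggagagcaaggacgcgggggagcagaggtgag
CTSD: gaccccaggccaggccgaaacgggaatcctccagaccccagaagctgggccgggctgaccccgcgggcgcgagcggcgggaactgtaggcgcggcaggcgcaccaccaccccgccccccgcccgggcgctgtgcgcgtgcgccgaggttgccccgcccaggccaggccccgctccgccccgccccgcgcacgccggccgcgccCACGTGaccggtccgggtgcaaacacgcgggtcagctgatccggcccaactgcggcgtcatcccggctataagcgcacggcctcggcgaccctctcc
CTSC: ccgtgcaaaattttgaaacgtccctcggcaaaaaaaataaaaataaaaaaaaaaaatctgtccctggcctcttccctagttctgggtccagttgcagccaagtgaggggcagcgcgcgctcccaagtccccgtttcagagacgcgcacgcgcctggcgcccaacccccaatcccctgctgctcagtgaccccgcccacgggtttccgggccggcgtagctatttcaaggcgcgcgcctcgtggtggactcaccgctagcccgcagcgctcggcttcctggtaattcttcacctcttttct
The matches to CACGTG in CTSA begin 42 and 25 bases before the start, and that in CTSD 47 bases before it. The match to TCACGTGA in CTSA, which holds the nearer CACGTG, begins 26 bases before the start.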

How the data were processed

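RNA was sequenced from 6 libraries, made with a KAPA mRNA kit per the labels' protocols. The submitters' processing notes name Trimmomatic 0.35, STAR 2.5.1b, the build GRCh38 and DESeq2 1.18.1, with the counting step not named. The deposited signal values are read counts that the authors divided by 1 size factor per library (0.9483 to 1.147): 100% of values were whole multiples, within 0.01, of each library's smallest, which gave back the reads. Other columns hold, per the file headers, the authors' log2 fold changes and group means, scores (Wald statistics) and p-values, used where named. The number of per-sample columns left out was 0.

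The 13315 genes that reached 10 normalised counts in 3 or more libraries were compared on log2(value + 1) with limma 3.58.1 (trend and robust) in R 4.3.3. Fold changes are on that scale, which understates those of low genes. Replicates differed by more than sampling noise (chi-square per degree of freedom 3.34 to 16.3) and were counted separately. The steps were tested on simulated data. Alternatives included edgeR 4.0.16 and DESeq2 1.42.0 on the whole reads. Exon lengths and overlaps are from GENCODE 29, in which 99.4% of gene identifiers were found.

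The members and gene lists were chosen with earlier results of these data known. The text names all members, tested genes of the further cathepsins, cystatins and partners, up to 3 called genes with the largest change in each other lysosomal list (where the higher group averaged 50 or more), and the 3 genes most like the called member with the largest change. A gene that this rule names is not reported here.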

Additional observations from a re-analysis of the deposited data

How the results depend on the processing

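The count of cathepsins that rose was 3 and of those that fell 3 or 4 under the other normalisations, pseudocounts, filters and tests. The same held without any 1 library. Tested genes that passed as higher numbered from 2450 of 13075 (without 72 h replicate A) to 3501 of 13315 (quantile normalisation). Those that passed as lower numbered from 2597 of 13125 (without 30 h replicate B) to 3465 of 26826 (no filter). The steady count is thus not read as a result about the members. Without both libraries of letter C, 5 rose and 4 fell, while 3254 of 12772 tested genes passed as higher and 3495 as lower. By edgeR on whole reads 48.8% of all tested genes passed and 3 cathepsins rose and 4 fell. CTSB lost its call without a filter (limma adjusted p = 0.217). Leaving out 1 library turned the direction of 3 genes that did not pass the test: the log2 fold change of CTSA ranged from -0.05 to 0.14, that of CTSK from -0.05 to 0.37 and that of CSTB from -0.01 to 0.10. The genes of sorting to lysosomes that rose were 4 with quantile normalisation, 1 by DESeq2, 0 in the authors' deposited table and 0 to 1 without 1 library. The cause was not tested. With the replicate letter as a block, 3 cathepsins rose and 3 fell, CTSB missing the threshold (limma adjusted p = 0.0571). In that fit 3271 of 13315 tested genes passed as higher and 3452 as lower. The letters were not shown to pair the libraries (r = 0.00696 for A, 0.172 for B and 0.185 for C). CTSH, with 10 to 39 reads per library, is limited by depth.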
